A study of Mus musculus with 12 samples.

Results

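The genes described here encode the core of the TGF-beta pathway: the ligands Tgfb1, Tgfb2 and Tgfb3, the receptors Tgfbr1, Tgfbr2 and Tgfbr3, and the SMADs Smad2, Smad3, Smad4 and Smad7. They were taken by symbol, and all 10 were found among the 24054 genes of the count tables. They comprise 3 ligands, 3 receptors and 4 SMADs, and all of them were among the 14860 genes with enough reads to be tested. A TGF-beta ligand is secreted in a latent form held in the extracellular matrix and, once freed, binds the type II receptor TGFBR2, which phosphorylates the type I receptor TGFBR1. TGFBR1 then phosphorylates SMAD2 and SMAD3, which join SMAD4 and enter the nucleus, while SMAD7 is an induced inhibitor that acts on the receptor. In the colon the pathway restrains epithelial growth and drives matrix production by fibroblasts, and loss of its receptor or of SMAD4 is a frequent event in colorectal cancer.

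Poly(A) RNA was sequenced from 12 mouse libraries in 3 groups of 4. The BTPRZ-T group is tumour of the genotype BrafV600E;Tgfbr2-/-;Rnf43-/-/Znrf3-/-;p16 Ink4a-/-, in which an activated Braf kinase allele is combined with loss of Tgfbr2, of the WNT receptor ligases Rnf43 and Znrf3, and of the cell cycle inhibitor p16 Ink4a. The BT-T group is tumour with the Braf allele and loss of Tgfbr2 alone (BrafV600E;Tgfbr2-/-), and the N group is normal wild-type colon, adjacent tissue according to the series design. Tumours grew from colonic organoids, epithelial cultures that were edited and then engrafted, and the labels give the strain NSG for every library. NSG mice lack mature lymphocytes and NK cells, so all groups should hold little lymphoid tissue. Blood vessels, fibroblasts and myeloid cells of a tumour come from the host and carry the host's own Tgfbr2. The labels give no number of organoid lines and tie no library to an animal, so p-values measure the spread between libraries, which may be technical.

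Libraries held 15.7M to 26.1M gene reads, and the 10 genes held between 97 reads (Tgfb2 in N replicate 2) and 10394 reads (Tgfbr2 in BT-T replicate 4). Levels are CPM, reads of a gene on a common library total after TMM scaling, and differences are log2 fold changes ± SE from edgeR's quasi-likelihood test over all 12 libraries. A gene was called at a Benjamini-Hochberg adjusted p under 0.05 over all tested genes, and "rose" and "fell" are used of called genes alone. 3 libraries stood apart, with reads of 14697 genes in BTPRZ-T replicate 1, 13450 in BTPRZ-T replicate 4 and 14175 in N replicate 2, against 16131 to 17266 in the other 9. Ribosomal protein transcripts took 7.91, 3.99, 3.10 and 4.67% of reads in BTPRZ-T replicates 1 to 4, 1.597 to 2.37% in BT-T, and 9.66% in N replicate 2 against 1.36 to 1.68% in the other N libraries. The slope of level on transcript length was -0.41 to 0.08 in BTPRZ-T, 0.05 to 0.25 in BT-T, and 0.15 to 0.23 in N, except for N replicate 2 at -0.71. BTPRZ-T thus differed from BT-T in ribosomal share with no overlap, and the part of this shift in the levels of the 10 genes was not tested beyond the fit with the length trend removed. Results that rest on these libraries are given with and without them.

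Tgfbr2 is the edited receptor and was therefore read first. It had 149.0, 186.8, 191.9 and 270.9 CPM in BTPRZ-T replicates 1 to 4, 313.8, 427.9, 400.4 and 526.5 CPM in BT-T, and 196.2, 71.1, 222.5 and 286.0 CPM in N. All BT-T libraries were above all N libraries, while BTPRZ-T and N overlapped, and the lowest level of all was that of N replicate 2. The counts span the whole gene (chromosome 9, 116084293 to 116175360, minus strand, GRCm38) and include reads from host cells, so they cannot show whether an edit is present. In bulk tissue, fewer cells of a type and less RNA per cell cannot be told apart.

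**Figure D1:**
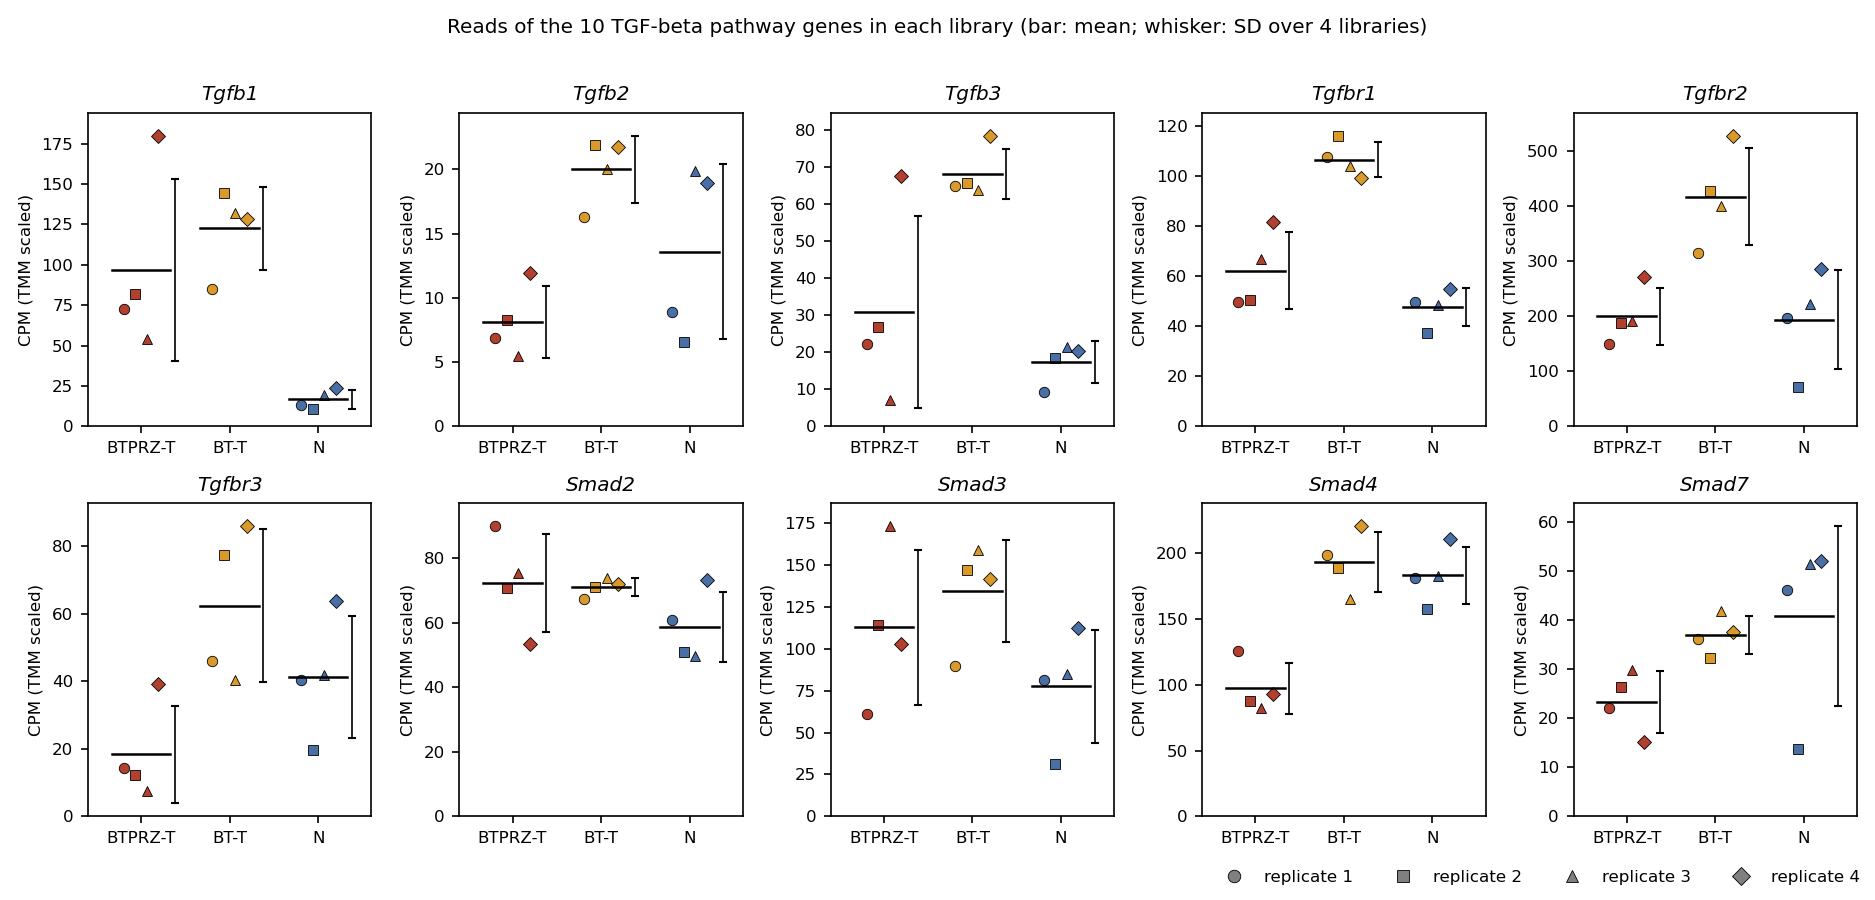
CPM of the 10 genes in each library, with groups in the order BTPRZ-T, BT-T, N; points are libraries (the marker gives the replicate), the bar is the mean and the whisker the SD over 4 libraries. Tgfb1 is high in both tumour groups, Smad4 is low in BTPRZ-T, and BTPRZ-T replicate 4 holds the highest level of every ligand and receptor in its group.

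Promoter sequence was available for 5 of the 10 genes in the RefSeq table of GRCm38.p6, and those of Tgfb1, Tgfb2, Tgfbr1 and Tgfbr2 are shown. Each is the 250 bases before the annotated start, 5′ to 3′ on the gene's strand, and capitals mark matches to the motifs searched. The motifs were GGGCGG, the GC box bound by SP1, CAGAC, which is part of the SMAD box, TGANTCA, the AP-1 site, and TATAAA, the TATA box, each sought on both strands. Tgfb1 lies at chr7:25686752-25687001 on the plus strand, Tgfb2 at chr1:186705990-186706239 on the minus strand, Tgfbr1 at chr4:47352972-47353221 on the plus strand and Tgfbr2 at chr9:116175364-116175613 on the minus strand. Tgfbr1 has 2 listed windows, of which the most upstream is shown.
Tgfb1: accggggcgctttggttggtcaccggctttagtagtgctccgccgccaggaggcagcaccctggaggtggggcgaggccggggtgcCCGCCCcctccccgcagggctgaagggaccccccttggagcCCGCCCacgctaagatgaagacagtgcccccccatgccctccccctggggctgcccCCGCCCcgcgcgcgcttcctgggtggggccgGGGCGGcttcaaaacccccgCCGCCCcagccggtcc
Tgfb2: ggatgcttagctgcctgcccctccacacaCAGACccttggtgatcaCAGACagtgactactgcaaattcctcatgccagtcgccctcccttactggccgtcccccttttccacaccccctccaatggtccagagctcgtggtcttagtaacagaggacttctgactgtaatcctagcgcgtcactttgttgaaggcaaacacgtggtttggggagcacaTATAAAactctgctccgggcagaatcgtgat
Tgfbr1: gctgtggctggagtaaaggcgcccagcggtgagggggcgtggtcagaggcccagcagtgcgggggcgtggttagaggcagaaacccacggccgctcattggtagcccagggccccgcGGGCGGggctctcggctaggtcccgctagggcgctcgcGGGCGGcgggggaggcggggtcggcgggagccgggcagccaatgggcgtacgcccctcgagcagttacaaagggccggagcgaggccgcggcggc
Tgfbr2: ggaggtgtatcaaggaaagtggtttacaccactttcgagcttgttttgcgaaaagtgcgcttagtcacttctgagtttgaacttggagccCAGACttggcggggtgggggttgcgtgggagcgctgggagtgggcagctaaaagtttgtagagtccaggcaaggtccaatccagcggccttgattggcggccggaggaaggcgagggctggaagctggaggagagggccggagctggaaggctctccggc
The Tgfb1 window held 5 GC boxes and no other motif, and the Tgfbr1 window held 2 GC boxes. The Tgfb2 window held none, but had 2 CAGAC matches and 1 TATA box, and the Tgfbr2 window had 1 CAGAC match. Of all 32851 windows of this length, 32.7% held a GC box, 42.2% CAGAC, 6.75% TGANTCA and 12.4% TATAAA. The share of G and C was 75.2% for Tgfb1, 53.6% for Tgfb2, 74.8% for Tgfbr1 and 58.4% for Tgfbr2, against a median of 52.4% over all windows. No match overlapped another motif, and the Tgfb1 and Tgfb2 windows had none in common. A match is a run of letters and says nothing of binding.

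Among the ligands, Tgfb1 rose in both tumour groups, Tgfb3 rose in BT-T, and Tgfb2 was not called in any comparison. Tgfb1 (chromosome 7, 25687002 to 25705077) encodes the ligand most widely made by immune, endothelial and stromal cells. It had 72.6, 82.0, 53.8 and 179.5 CPM in BTPRZ-T, 85.2, 144.3, 132.3 and 128.5 CPM in BT-T, and 13.3, 10.8, 19.6 and 23.6 CPM in N. Every tumour library exceeded every N library, and the 2 tumour groups overlapped. The log2 fold change was 2.53 ± 0.39 for BTPRZ-T against N (edgeR adjusted p = 0.00182) and 2.86 ± 0.40 for BT-T against N (adjusted p = 0.00124). Both calls held in all 25 alternative analyses, at 1.92 to 2.73 for BTPRZ-T and 2.70 to 3.07 for BT-T. Between the tumour groups the value was -0.34 ± 0.37 (adjusted p = 0.646).

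Tgfb3 (chromosome 12, 86056745 to 86079041), a ligand of mesenchymal tissue and palate development, had 22.1, 26.9, 7.0 and 67.4 CPM in BTPRZ-T, 64.7, 65.7, 63.7 and 78.3 CPM in BT-T, and 9.21, 18.5, 21.4 and 20.3 CPM in N. BT-T was narrow and above all N libraries, while BTPRZ-T ran from below N to within BT-T. It rose in BT-T against N by 1.97 ± 0.52 (adjusted p = 0.0362). This call was lost without any single BT-T library (adjusted p = 0.0637, 0.0845, 0.0773 and 0.0879 without replicates 1 to 4), without N replicate 1, 3 or 4 (0.0942, 0.0634 and 0.0591) and without BTPRZ-T replicate 2 (0.0536), and it was also lost with the length trend removed (1.70, adjusted p = 0.0536). Against N the BTPRZ-T value was 0.83 ± 0.51 (adjusted p = 0.349), and against BT-T it was -1.14 ± 0.51 (adjusted p = 0.279).

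Tgfb2 (chromosome 1, 186622792 to 186705989), a ligand prominent in developing neural and cardiac tissue, was the scarcest of the 10 per kilobase in each group. It had 6.84, 8.28, 5.45 and 11.9 CPM in BTPRZ-T, 16.3, 21.9, 20.02 and 21.7 CPM in BT-T, and 8.92, 6.57, 19.9 and 18.97 CPM in N. BTPRZ-T lay below BT-T in every library, and N overlapped both. The log2 fold change was -1.30 ± 0.38 for BTPRZ-T against BT-T (adjusted p = 0.121), -0.74 ± 0.38 for BTPRZ-T against N (0.249) and 0.56 ± 0.38 for BT-T against N (0.393). Without N replicate 2 both BTPRZ-T comparisons were called, the one against N at -0.97 (adjusted p = 0.0375).

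Within a library, the ratio of 2 genes does not depend on the scaling, and per kilobase of transcript it compares their levels. It does depend on the slope of level on transcript length, which differed between libraries. The transcript lengths used were 2573 bases for Tgfb1 and 5116 for Tgfb2. N replicate 2, with a slope of -0.71, had the highest Tgfb1 over Tgfb2 of N. No ratio or share was corrected for the slope, and its part in them was not tested. The log2 ratio of Tgfb1 over Tgfb2 per kilobase was 4.29 to 4.91 in BTPRZ-T, 3.38 to 3.72 in BT-T and 0.97 to 1.71 in N. The 3 ranges did not overlap, so the balance of these ligands was ordered BTPRZ-T, BT-T, N, although Tgfb1 itself was not higher in BTPRZ-T than in BT-T. Tgfb1 made up 79.5 ± 5.10% of ligand signal per kilobase in BTPRZ-T, 66.0 ± 4.87% in BT-T and 45.8 ± 6.69% in N (SD, n = 4 each). Tgfb2 made up 3.64%, 5.47% and 17.8% and Tgfb3 16.9%, 28.5% and 36.4% in BTPRZ-T, BT-T and N. The ratio of Tgfb1 over Tgfb3 was 1.81 to 3.34 in BTPRZ-T, 0.79 to 1.53 in BT-T and -0.38 to 0.92 in N, where BT-T and N overlapped. These ratios were chosen with earlier results of these data known and are given with no test.

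**Figure D2:**
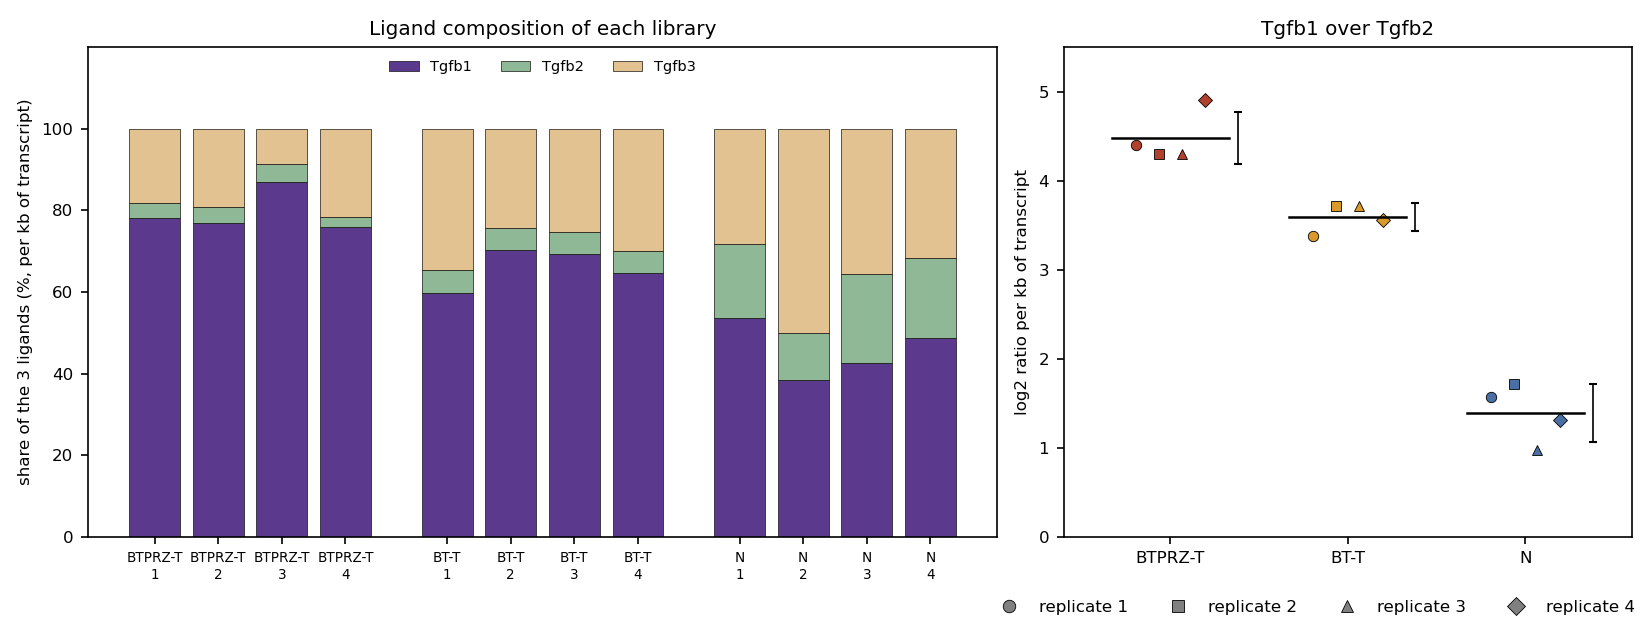
Left, share of each ligand in the summed CPM per kilobase of the 3 ligands, by library. Right, log2 ratio of Tgfb1 over Tgfb2 per kilobase; points are libraries, the bar is the mean and the whisker the SD over 4 libraries. Tgfb1 takes the largest part in every tumour library, and the ratio is 4.29 to 4.91 in BTPRZ-T, 3.38 to 3.72 in BT-T and 0.97 to 1.71 in N.

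Among the receptors, Tgfbr1 rose in BT-T against N, and no receptor was called in BTPRZ-T against either group. Tgfbr1 (chromosome 4, 47353222 to 47414931), the type I kinase, had 49.8, 50.4, 66.9 and 81.8 CPM in BTPRZ-T, 107.5, 116.0, 104.1 and 99.1 CPM in BT-T, and 49.9, 37.3, 48.3 and 55.1 CPM in N. BT-T stood above both other groups in every library, and BTPRZ-T overlapped N. The rise in BT-T against N was 1.16 ± 0.21 (adjusted p = 0.00533). It held without each library in turn, and after removal of the trend on transcript length it was 0.70 (adjusted p = 0.0829). BTPRZ-T against BT-T gave -0.78 ± 0.21 (adjusted p = 0.0996), and BTPRZ-T against N gave 0.39 ± 0.21 (0.286). BTPRZ-T against BT-T was called in 6 of 25 alternatives, among them DESeq2 (adjusted p = 0.00465) and the fit without N replicate 2 (0.0127), and was -0.14 with the length trend removed.

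Tgfbr2, with the values given above, differed by 1.10 ± 0.37 between BT-T and N (adjusted p = 0.0874), by 0.04 ± 0.36 between BTPRZ-T and N (0.965) and by -1.06 ± 0.37 between BTPRZ-T and BT-T (0.175). BT-T against N was called in 5 of 25 alternatives. The adjusted p was 0.0418 without N replicate 2, the lowest library at 71.1 CPM, and 0.0071 without all 3 libraries that stood apart. With every library kept it was 0.0225 by DESeq2, 8.42e-05 by voom with quality weights and 0.0406 with the length trend removed. BTPRZ-T against BT-T was also called in 5 of 25, at 0.0419 by DESeq2 and 0.0111 without N replicate 2, and its value lay between -1.29 and -0.25 over the alternatives, with -0.25 after removal of the length trend. Tgfbr3 (chromosome 5, 107106570 to 107289629), the co-receptor betaglycan that presents ligand and that TGFB2 needs most, had 14.3, 12.2, 7.55 and 39.3 CPM in BTPRZ-T, 46.0, 77.2, 40.3 and 85.8 CPM in BT-T, and 40.3, 19.6, 41.8 and 63.6 CPM in N. All BTPRZ-T libraries were below all BT-T libraries, by a narrow gap at BTPRZ-T replicate 4. The value was -1.76 ± 0.51 for BTPRZ-T against BT-T (adjusted p = 0.114) and -1.17 ± 0.50 against N (0.160). Without BTPRZ-T replicate 4 the comparison with N was called at -1.85 (adjusted p = 0.0212), and without N replicate 2 at -1.40 (0.0414). The log2 ratio of Tgfbr3 over Tgfbr2 per kilobase was -4.26 to -2.37 in BTPRZ-T, -2.90 to -2.06 in BT-T and -2.00 to -1.45 in N. N thus lay above both tumour groups, which overlapped. BT-T against N for Tgfbr3 was 0.59 ± 0.49 (adjusted p = 0.503).

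Among the SMADs, Smad4 fell in BTPRZ-T against both other groups, and no other SMAD was called. Smad4 (chromosome 18, 73639009 to 73703780), the shared partner of the receptor-activated SMADs, had 125.3, 87.8, 82.7 and 93.0 CPM in BTPRZ-T, 198.7, 188.4, 164.9 and 220.4 CPM in BT-T, and 181.0, 157.9, 182.8 and 210.7 CPM in N. Every BTPRZ-T library was below every library of the other groups, which overlapped each other. Smad4 averaged 97.2 ± 19.2 CPM in BTPRZ-T, 193 ± 23.0 in BT-T and 183 ± 21.6 in N (SD, n = 4 each). It fell by 0.91 ± 0.21 on the log2 scale against N (adjusted p = 0.0130) and by 0.99 ± 0.21 against BT-T (adjusted p = 0.0495). The call against N held in 24 of 25 alternatives and was lost with BTPRZ-T and N alone in the fit (adjusted p = 0.0777). The call against BT-T held in 10 of 25, with adjusted p between 1.34e-05 and 0.194 and values between -1.18 and -0.66. It held without N replicate 2 and without BTPRZ-T replicate 4 and was lost without any other single library. BT-T against N was 0.08 ± 0.20 (adjusted p = 0.868).

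Smad2 (chromosome 18, 76241580 to 76310963), a receptor-activated SMAD, had 90.0, 70.7, 75.5 and 53.3 CPM in BTPRZ-T, 67.4, 71.1, 73.9 and 71.9 CPM in BT-T, and 60.8, 50.9, 49.9 and 73.2 CPM in N. The groups overlapped, and values were between 0.03 and 0.30 in the 3 comparisons (adjusted p = 0.408 or more). Smad3 (chromosome 9, 63646767 to 63757994), the other receptor-activated SMAD, which binds DNA directly, had 61.2, 114.3, 173.0 and 102.9 CPM in BTPRZ-T, 89.9, 147.0, 158.6 and 141.5 CPM in BT-T, and 81.3, 31.5, 85.0 and 112.3 CPM in N. Here too the groups overlapped, with 0.54 ± 0.38 for BTPRZ-T against N (adjusted p = 0.432), 0.79 ± 0.39 for BT-T against N (0.232) and -0.25 ± 0.38 for BTPRZ-T against BT-T (0.749).

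Smad7 (chromosome 18, 75367529 to 75395935), the inhibitor, had 22.1, 26.3, 29.8 and 15.1 CPM in BTPRZ-T, 36.1, 32.3, 41.8 and 37.5 CPM in BT-T, and 46.2, 13.7, 51.3 and 52.1 CPM in N. BTPRZ-T was below BT-T in every library and below 3 of the 4 N libraries. The value was -0.81 ± 0.36 for BTPRZ-T against N (adjusted p = 0.186), -0.66 ± 0.36 for BTPRZ-T against BT-T (0.365) and -0.15 ± 0.36 for BT-T against N (0.857). Without N replicate 2, which had the lowest level of all, BTPRZ-T against N was called at -1.10 (adjusted p = 0.00285), and so was BTPRZ-T against BT-T at -0.66 (0.0382). The log2 ratio of Smad7 over Smad3 per kilobase was -2.51 to -1.22 in BTPRZ-T, -1.94 to -1.07 in BT-T and -0.96 to -0.48 in N. The inhibitor was thus lower relative to Smad3 in every tumour library than in every N library, N replicate 2 included. Relative to Smad4 it was not, as all groups overlapped. That log2 ratio was -2.96 to -1.81 in BTPRZ-T, -2.89 to -2.32 in BT-T and -3.87 to -2.17 in N.

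**Figure D3:**
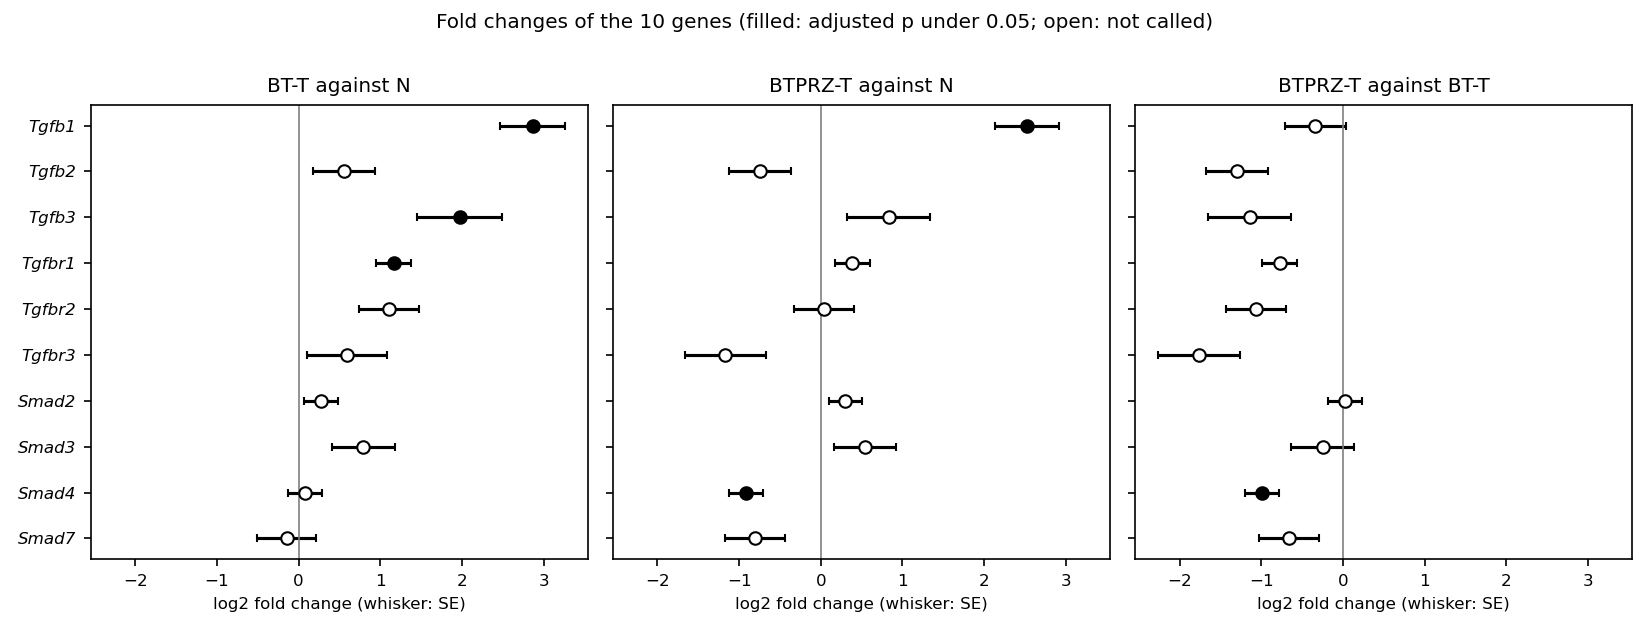
log2 fold changes of the 10 genes in the 3 comparisons, with whiskers of 1 SE; filled points have an adjusted p under 0.05. Tgfb1 is filled in both comparisons with N, Tgfb3 and Tgfbr1 in BT-T against N, and Smad4 in both comparisons of BTPRZ-T.

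Counted together, 3 of the 10 genes rose and none fell in BT-T against N, where 8.57% of all tested genes were called, 5.67% higher and 2.9% lower. In BTPRZ-T against N, 1 rose and 1 fell, where 11.8% of all tested genes were called, 5.66% higher and 6.18% lower. In BTPRZ-T against BT-T, 1 fell, where 0.754% of all tested genes were called, 0.155% higher and 0.599% lower. At an unadjusted p under 0.05 the members numbered 4, 4 and 6 in these comparisons, where the shares of all tested genes were 24.1%, 25.5% and 17.3%. All BT-T libraries were above all N libraries for 4 genes, Tgfb1, Tgfb3, Tgfbr1 and Tgfbr2, where 13.4% of all tested genes were higher without overlap and 9.02% lower. All BTPRZ-T libraries were above all N libraries for Tgfb1 and below them for Smad4, where 6.88% of all tested genes were higher without overlap and 7.64% lower. All BTPRZ-T libraries were below all BT-T libraries for 6 genes, Tgfb2, Tgfbr1, Tgfbr2, Tgfbr3, Smad4 and Smad7, where 11.5% of all tested genes were higher without overlap and 12.7% lower. The median log2 fold change of the 10 genes was 0.69 for BT-T against N, 0.17 for BTPRZ-T against N and -0.88 for BTPRZ-T against BT-T, beside -0.10, -0.10 and -0.03 over all tested genes. The comparisons with N share the N libraries, and both BTPRZ-T comparisons share the BTPRZ-T libraries.

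Ranked per kilobase of transcript, the mean level in BTPRZ-T was highest for Tgfb1 at 37.7 CPM per kilobase, then Smad4 at 28.7, Tgfbr2 at 24.7 and Smad3 at 22.2. In BT-T the leading genes were Smad4 at 57.1, Tgfbr2 at 51.6 and Tgfb1 at 47.6, and in N they were Smad4 at 54.1, Tgfbr2 at 24.0 and Smad3 at 15.2. Tgfb1 stood at 6.54 CPM per kilobase in N, below 7 of the other genes there. The lowest in each group was Tgfb2, at 1.59, 3.91 and 2.65 CPM per kilobase in BTPRZ-T, BT-T and N. In BTPRZ-T the libraries of all neighbours in this order overlapped. In BT-T they overlapped except between Tgfb1 and Smad3, Tgfbr1 and Tgfbr3, and Smad7 and Tgfb2, and in N except between Smad4 and Tgfbr2.

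Some markers of other cell types were also called against N, in both directions. Of all tested genes, 11.8% were called in BTPRZ-T against N and 8.57% in BT-T against N. Of 10 fibroblast markers, 4 rose in BTPRZ-T and 8 in BT-T against N, and their summed level was 1896 to 8608 CPM in BTPRZ-T, 8704 to 16982 in BT-T and 1263 to 2049 in N. Leaving out each library in turn gave 1 to 6 in BTPRZ-T, with 1 without N replicate 1 and 6 without N replicate 2, and 7 to 9 in BT-T, and with BTPRZ-T and N alone in the fit none was called in BTPRZ-T. Of 10 macrophage markers, 5 rose in BTPRZ-T and 8 in BT-T, with sums of 291 to 1438, 689 to 1047 and 159 to 439 CPM in BTPRZ-T, BT-T and N. The macrophage count in BT-T was 4 or 5 without any single BT-T library and without N replicate 1 or 3, and in BTPRZ-T it was 2 without BTPRZ-T replicate 4 or N replicate 1 and 1 without N replicate 3. Of 10 endothelial markers, 2 and 4 rose, with sums of 349 to 678, 490 to 880 and 176 to 342 CPM, and the count in BT-T was 1 or 2 without BT-T replicate 2, 3 or 4 or N replicate 1 or 3, and in BTPRZ-T 1 to 4 over the libraries left out. For the 8 epithelial markers the sums overlapped, at 7392 to 15866, 8574 to 10272 and 10110 to 12511 CPM, and Krt18 alone rose, in BTPRZ-T (1.40 ± 0.25 against N, adjusted p = 0.00333). Smooth muscle markers summed to 444 to 4809, 3592 to 5901 and 7171 to 18974 CPM, and 5 of 8 fell in BTPRZ-T against N, with 3 without BTPRZ-T replicate 2, BT-T replicate 4 or N replicate 3. Of 7 markers of enteric neurons and glia, Elavl4, Sox10 and Tubb3 fell in BTPRZ-T against N (-5.73 ± 1.32, -4.13 ± 1.16 and -3.17 ± 0.88, adjusted p = 0.0150, 0.0367 and 0.0357), with sums of 6.45 to 28.8, 23.3 to 58.6 and 29.6 to 82.5 CPM. That count was 1 to 5 over the libraries left out, with 1 without BTPRZ-T replicate 3, any single BT-T library or N replicate 1, 3 or 4. In BTPRZ-T, Elavl4 averaged 0.0837, Sox10 0.205 and Tubb3 1.07 CPM, so these fold changes rest on very few reads. The neutrophil marker Csf3r rose by 3.44 ± 0.59 in BTPRZ-T and 3.87 ± 0.60 in BT-T (adjusted p = 0.00317 and 0.00240), 1 of 5 tested of its list, which summed to 11.02 to 63.0, 20.5 to 66.4 and 1.89 to 20.8 CPM. The platelet marker Ppbp rose by 4.22 ± 0.82 and 5.88 ± 0.86 (adjusted p = 0.00607 and 0.00159), 1 of 3 tested, with list sums of 6.78 to 18.3, 9.22 to 41.4 and 1.32 to 12.7 CPM. Ppbp averaged 2.15, 6.79 and 0.109 CPM in BTPRZ-T, BT-T and N, so its fold changes rest on very few reads in N. Of the same list, Gp1ba had no reads in BTPRZ-T and N, and Gp9 none in BT-T. No marker of fibroblasts, macrophages, endothelium, epithelium or smooth muscle was at 0 in a whole group. Of 5 lymphoid markers, the T cell gene Cd3g was at 0 in every library, while others had reads in some groups. Their sums were 0 to 0.275 CPM in BTPRZ-T, 0 to 0.174 in BT-T and 0 to 0.0591 in N. The part of these cell types in the levels of the pathway genes was not tested.

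Within BTPRZ-T, replicates 3 and 4 were extreme on both counts, and replicate 4 is among the 3 libraries with the fewest detected genes. BTPRZ-T replicate 4 had the highest fibroblast, macrophage and endothelial sums of its group (8608, 1438 and 678 CPM) and the lowest epithelial sum (7392 CPM), and it had the highest level of all 3 ligands and all 3 receptors. BTPRZ-T replicate 3 had the lowest fibroblast sum (1896 CPM), the lowest Tgfb1, Tgfb2, Tgfb3 and Tgfbr3, and the highest Smad3. Tgfbr1 and Tgfbr2 did not follow, as both were lowest in replicate 1, at 49.8 and 149.0 CPM. Smad4 was also lowest in replicate 3, at 82.7 CPM, and was highest in replicate 1, at 125.3 CPM. The other groups were mixed. BT-T replicate 4 had the highest fibroblast sum of its group (16982 CPM), with the highest Tgfb3, Tgfbr2 and Tgfbr3 but the lowest Tgfbr1 (99.1 CPM). N replicate 2 had the highest macrophage sum (439 CPM) and the lowest endothelial sum (176 CPM) of N, with the lowest Tgfb1, Tgfb2 and all 3 receptors.

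**Figure D4:**
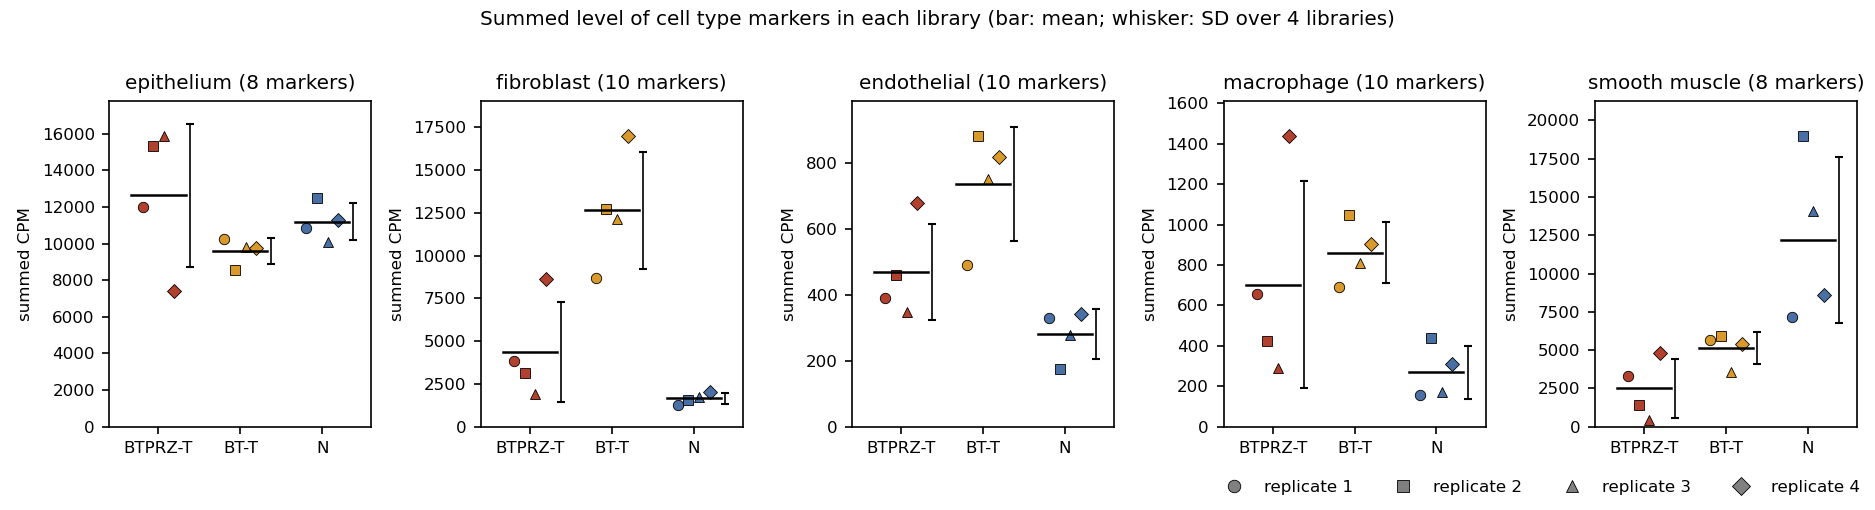
Summed CPM of the markers of 5 cell types in each library; points are libraries, the bar is the mean and the whisker the SD over 4 libraries. Fibroblast sums are 8704 to 16982 CPM in BT-T, above every other library, and BTPRZ-T replicate 4 is the highest of its group for fibroblast, endothelial and macrophage markers and the lowest for epithelium.

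Genes whose profile over the 12 libraries was most like a member were found by the root mean square difference of log2 CPM, each gene centred on its own mean, among 14080 genes. Nearest to Tgfb1 were Cdh5, the endothelial cadherin (0.28), Sp6, a transcription factor of the SP family (0.29), and Adamts4, a matrix protease (0.29), where the median gene was at 1.46. Nearest to Tgfb3 were Tvp23a (0.32), Efemp2, an elastic fibre protein (0.35), and Cdh11, a cadherin of mesenchymal cells (0.36), with a median of 1.26. Nearest to Tgfb2 were the endothelin receptor Ednrb (0.20), Zfp518b (0.24) and Hspa12a (0.24), with a median of 0.88. Nearest to Tgfbr2 were Lamb2, a laminin chain (0.18), Col6a1, a collagen VI chain (0.18), and Dennd4a (0.18), with a median of 0.91. The libraries share group means, so genes that differ between groups in the same way come out near each other.

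The latent ligand is held and freed by other proteins, and of 12 such genes, 7 rose and none fell in BT-T against N, 1 rose in BTPRZ-T against N, and 2 fell in BTPRZ-T against BT-T. The shares of all tested genes called in these comparisons were 8.57%, 11.8% and 0.754%. The median log2 fold change of the 12 was 1.85, 0.69 and -1.01, beside -0.10, -0.10 and -0.03 over all tested genes. Itgb8, the integrin subunit that binds and activates latent ligand, averaged 15.3 ± 11.4 CPM in BTPRZ-T, 24.6 ± 9.17 in BT-T and 0.787 ± 0.315 in N (SD, n = 4 each). It rose by 4.28 ± 0.55 in BTPRZ-T (adjusted p = 0.000684) and by 4.96 ± 0.56 in BT-T (0.000498), in all 25 alternatives. Ltbp1, which tethers the latent complex to the matrix, rose in BT-T by 1.74 ± 0.28 (adjusted p = 0.00289), with 115 ± 24.9 CPM in BT-T against 34.3 ± 11.2 in N. The matrix proteins Fbn1 (2.81 ± 0.55, adjusted p = 0.00755) and Thbs1 (2.24 ± 0.47, 0.0106), an activator of the latent form, rose with it. Ltbp1 fell in BTPRZ-T against BT-T by 1.46 ± 0.28, as did Emilin1, which limits ligand processing, by 1.42 ± 0.27 (adjusted p = 0.0423 for both). Both of these calls were lost in 9 of the 12 analyses that left out 1 library, and both held without BTPRZ-T replicate 4 or N replicate 2. The count for BT-T against N was 4 without BT-T replicate 2, and that for BTPRZ-T against N was 2 without BTPRZ-T replicate 3 and 3 without N replicate 2. In the last of these fits 32.3% of all tested genes were called.

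Of 11 tested genes for other receptors and co-receptors of the superfamily, Acvr1, an activin and BMP type I receptor, and Eng, the endothelial co-receptor endoglin, rose in BT-T against N. The values were 0.94 ± 0.24 for Acvr1 (adjusted p = 0.0288) and 1.44 ± 0.37 for Eng (0.0292). In that comparison 8.57% of all tested genes were called. Acvr1 lost its call without any single BT-T library and without N replicate 1 or 3, and Eng without BT-T replicate 2, 3 or 4 or N replicate 1. No gene of this list was called by edgeR in BTPRZ-T against either group, with 2 at an unadjusted p under 0.05 in each comparison. Of all tested genes, 11.8% were called against N and 0.754% against BT-T. DESeq2 called 2 in each, voom none and voom with quality weights 8, and without N replicate 2 edgeR called 5 against N and 3 against BT-T. The shares of all tested genes against N and BT-T were 20.5% and 8.19% by DESeq2 and 55.3% and 52% with quality weights. Without N replicate 2 they were 32.3% and 18%. Of the 4 other SMADs, Smad6, a second inhibitor, fell in BTPRZ-T against N by 1.39 ± 0.34 (adjusted p = 0.0184), with 7.76 ± 2.15 CPM in BTPRZ-T and 20.4 ± 8.04 CPM in N. The call was lost without N replicate 1 (adjusted p = 0.0592) or 3 (0.0612).

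Of 16 genes that regulate SMADs and receptors, 2 rose in BT-T against N, and 2 rose and 1 fell in BTPRZ-T against N. These counts are near the 8.57% and 11.8% of all tested genes called. Pmepa1, a membrane protein that sequesters receptor-activated SMADs and is itself induced by the pathway, averaged 183 ± 12.8 CPM in BTPRZ-T, 345 ± 83.0 in BT-T and 63.4 ± 35.8 in N. It rose by 1.53 ± 0.33 in BTPRZ-T (adjusted p = 0.0111) and by 2.45 ± 0.34 in BT-T (0.00129). Tgif1, a SMAD co-repressor, rose by 1.33 ± 0.18 in BTPRZ-T (adjusted p = 0.000903) and by 1.03 ± 0.18 in BT-T (0.00389). Both held in all 25 alternatives in both comparisons. Nedd4l, a ubiquitin ligase that removes activated SMADs, fell in BTPRZ-T by 1.15 ± 0.29 (adjusted p = 0.0213), a call lost without BTPRZ-T replicate 1 or 2 or N replicate 1, 3 or 4. The count in BTPRZ-T was 6 without N replicate 2, where 32.3% of all tested genes were called.

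Of 16 genes known to respond to TGF-beta, 6 rose in BT-T against N, and 4 rose and 1 fell in BTPRZ-T against N, beside 8.57% and 11.8% of all tested genes. None was called between the tumour groups by edgeR with all libraries or by voom, with 5 at an unadjusted p under 0.05. Without single libraries edgeR called 0 to 3. DESeq2 called 2 and voom with quality weights 11, where they called 8.19% and 52% of all tested genes. The median log2 fold changes were 1.40 for BT-T against N, 1.10 for BTPRZ-T against N and -0.32 between the tumours. Col1a1, a chain of collagen I, rose by 2.33 ± 0.54 in BTPRZ-T (adjusted p = 0.0161) and by 3.71 ± 0.58 in BT-T (0.00232). Col1a2, its partner chain, rose by 2.01 ± 0.49 and 3.41 ± 0.52 (adjusted p = 0.0201 and 0.00214), and Ltbp2, a matrix protein related to the latency proteins, by 4.81 ± 1.00 and 5.55 ± 1.04 (0.00922 and 0.00602), in BTPRZ-T and BT-T. Without N replicate 1 the adjusted p in BTPRZ-T was 0.0549 for Col1a1 and 0.0651 for Col1a2. The gene that fell in BTPRZ-T, Acta2, encodes smooth muscle actin and averaged 583 ± 374 CPM in BTPRZ-T and 1970 ± 626 CPM in N (-1.76 ± 0.48, adjusted p = 0.0324). Col1a1, Col1a2, Postn, Acta2 and Tagln also stand in the fibroblast or smooth muscle lists above. The count in BT-T was 3 without BT-T replicate 2 or 3, and in BTPRZ-T it was 2 without N replicate 1, 3 without N replicate 3 and 8 without N replicate 2. In the last of these fits 32.3% of all tested genes were called.

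The 3 libraries with the fewest detected genes bear on several of these calls. Without them, Tgfb1, Tgfb3 and Tgfbr1 stayed called in BT-T against N, and Tgfbr2 and Smad7 joined them, Smad7 at -0.37 (adjusted p = 0.0413). In BTPRZ-T against N, Tgfb1 and Smad4 stayed called, and Tgfb2 (-1.14, adjusted p = 0.0317), Tgfbr3 (-2.23, 0.00316) and Smad7 (-0.78, 0.00341) were called lower. In BTPRZ-T against BT-T, Smad4 stayed called (-1.18, adjusted p = 0.00282), and Tgfb2, Tgfb3, Tgfbr1, Tgfbr2 and Tgfbr3 were called lower, with Tgfbr3 at -2.65 (0.00415). This fit has 2 BTPRZ-T, 4 BT-T and 3 N libraries. It also called far more of all tested genes. The shares were 28.7% in BT-T against N, 34.9% in BTPRZ-T against N and 24.5% in BTPRZ-T against BT-T. With all libraries they were 8.57%, 11.8% and 0.754%.

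**Figure D5:**
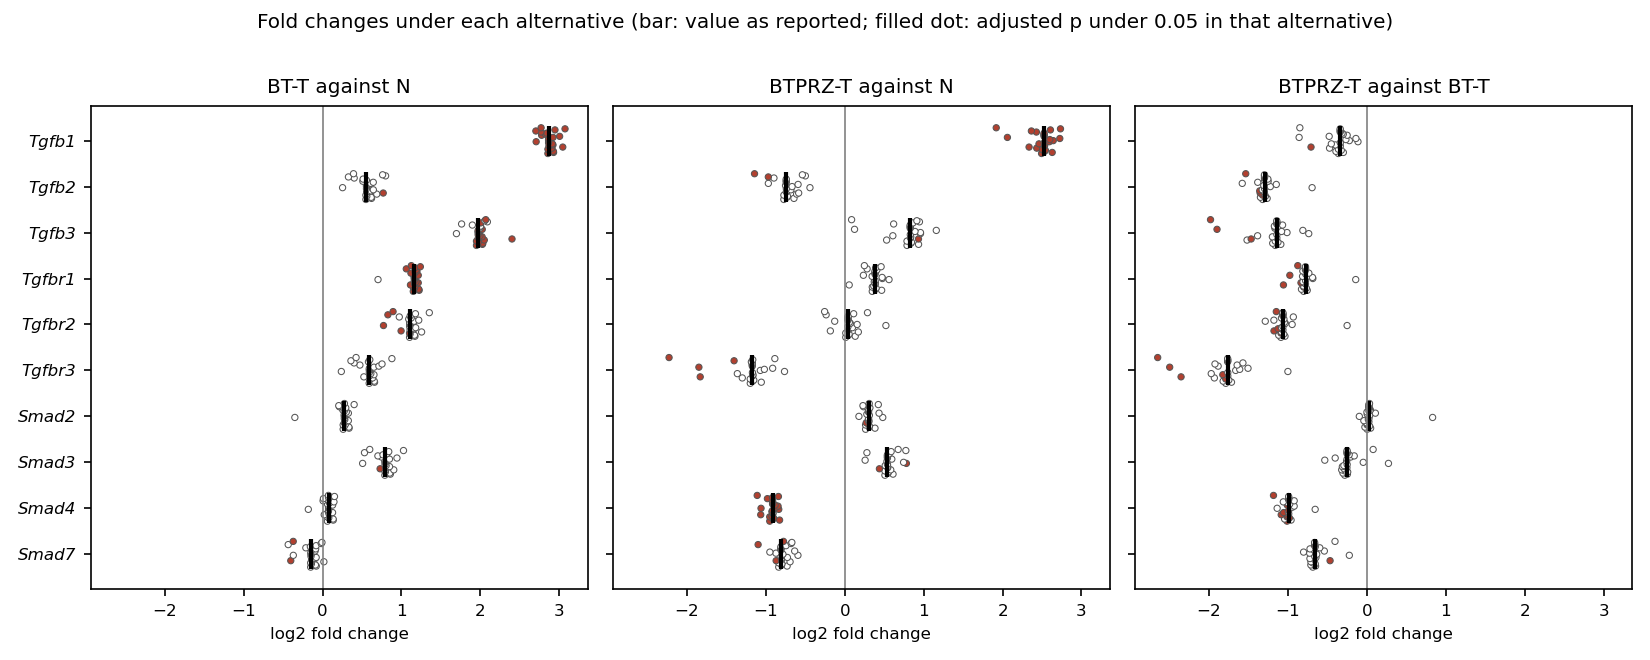
log2 fold changes of the 10 genes under each of the 25 alternative analyses; the bar is the value as reported and filled dots have an adjusted p under 0.05. Tgfb1 is filled throughout in both comparisons with N, and for BTPRZ-T against BT-T the values of Tgfb1, Tgfb2, Tgfb3, all receptors, Smad4 and Smad7 stay below 0 in every alternative.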

How the data were processed

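RNA was measured in 12 libraries. Stranded poly(A) libraries were read as single reads of 100 bases, per the labels' protocols. Per the submitters' processing notes, bcl2fastq 2.20, STAR 2.4.2a on mm10, edgeR 3.16.5, limma and HTSeq were used. The deposited files hold raw read counts per gene symbol, with no normalization by the authors. Which annotation defined the genes was not given in the sources used here.

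Of the stranded columns, column 4 was used, the other strand holding 0.819 to 0.994% as many reads. Rows that name no gene held 27.8 to 40.0% of reads and were left out. Genes were filtered with filterByExpr, scaled by TMM and fitted by edgeR 4.0.16 (R 4.3.3; glmQLFit with robust estimation, glmQLFTest, two-sided), 1 mean per group over 12 libraries, with Benjamini-Hochberg adjustment. The common biological coefficient of variation was 0.501. Replicates correlated at r = 0.798 to 0.987 across genes. Contrasting BTPRZ-T with BT-T also tests whether their effects against N differ. Lengths (longest transcript, 14183 tested genes) and positions are from GENCODE M21. For 2 list symbols the older symbol in the files was used.

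Members and lists were chosen with earlier results of these data known, so no list was tested. By rule the text names all members, up to 4 called genes per pathway list and comparison, and the 3 genes nearest to Tgfb1, Tgfb2, Tgfb3 and Tgfbr2. Acta2 is named beyond this rule, as the response gene that fell. Alternatives were upper quartile and RLE factors, no filter, 2 CPM in 4 libraries, DESeq2 1.42.0, limma 3.58.1 voom with and without sample quality weights, unstranded counts, the 2 compared groups alone, a replicate block, no robust estimation, a length trend removed, leaving out each library, and leaving out the 3 libraries with the fewest detected genes. The steps were tested on simulated data. Some marker genes are not reported here.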

Additional observations from a re-analysis of the deposited data

Results flagged for a closer look

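Among 30 groups of 4 libraries, 1 library stood far from the others in 2, and chance flags about 1 group in 20. Tgfb3 in BT-T replicate 4 had 78.3 CPM, against 63.7 to 65.7 CPM in the other BT-T libraries. Smad7 in N replicate 2 had 13.7 CPM, against 46.2 to 52.1 CPM in the other N libraries. N replicate 2 is also 1 of the 3 libraries with few detected genes. The difference of Smad4 from N was not the same in BTPRZ-T and BT-T, by -0.99 ± 0.21 on the log2 scale (edgeR adjusted p = 0.0495, lower in 4 of 4 BTPRZ-T libraries). This is the comparison of BTPRZ-T with BT-T given above and no further test, since N cancels. Its call held in 10 of 25 alternatives.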

How the results depend on the processing

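Over 25 alternatives and the 10 genes in 3 comparisons, 750 values gave the same call in 660, lost it in 26, gained it in 51 and changed sign in 13, all of them of uncalled values. The sign changes were Smad2 in BTPRZ-T against BT-T (-0.0256 with no filter, -0.0041 with quality weights, -0.039 with the 2 groups alone, and -0.0963, without BTPRZ-T replicate 1, to 0.1075 without single libraries), Smad7 in BT-T against N (0.0173 with voom), Tgfbr2 in BTPRZ-T against N (-0.18 with quality weights, -0.25 without the 3 libraries, and -0.24, without N replicate 2, to 0.2888 without single libraries, with -0.13 without BTPRZ-T replicate 4), Smad3 in BTPRZ-T against BT-T (0.27 with the length trend removed, 0.0788 without the 3 libraries), and, with the length trend removed, Smad2 (-0.35) and Smad4 (-0.18) in BT-T against N.

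Members called in BT-T against N were 3, and 8 with quality weights, 5 without the 3 libraries and 2 to 4 without single libraries. In BTPRZ-T against N they were 2, and 7, 5 and 2 to 5 in these settings, and 1 with the 2 groups alone. In BTPRZ-T against BT-T they were 1, and 8, 6 and 0 to 6, with 5 by DESeq2 and with the 2 groups alone, and 0 with upper quartile factors, no filter, unstranded counts, the replicate block and the length trend removed. Genes called in BT-T against N were 1274, and 2394 by DESeq2, 6156 with quality weights, 2216 with the length trend removed (801 higher and 1415 lower, against 843 and 431), 4359 without the 3 libraries and 624 (without BT-T replicate 2) to 2030 (without N replicate 2). In BTPRZ-T against N they were 1760, and 3048, 8211, 647 with the 2 groups alone, 5311 without the 3 libraries and 1076 (without N replicate 1) to 4855 (without N replicate 2). In BTPRZ-T against BT-T they were 112, and 1217 by DESeq2, 266 by voom, 7734 with quality weights, 1568 with the 2 groups alone, 346 with the length trend removed (253 higher and 93 lower), 3723 without the 3 libraries and 0 (without BTPRZ-T replicate 3 or BT-T replicate 2 or 4) to 2714 (without N replicate 2). RLE or upper quartile factors moved the median of all genes by at most 0.0745, and removing the length trend moved it by -0.224, 0.112 and 0.336 in these 3 comparisons.

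Deviations of same-numbered libraries correlated at -0.474 to 0.439, and 1 of 12 libraries was closest to its own number. The labels do not say whether equal numbers pair samples, and this check cannot exclude it. A replicate block gave 945, 1160 and 1 genes and 3, 2 and 0 members, in the order of the comparisons above. The causes of these changes were not tested. With 4 libraries a group and this spread, a p that misses the threshold does not show that levels were alike. The fewest reads of a member in a library were 97. Levels of other genes given above can rest on fewer reads, as for Ppbp and Itgb8, which averaged 0.109 and 0.787 CPM in N.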
